A study of Rattus norvegicus with 12 samples.

Results

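The 10 genes described here encode ligands, receptors, intracellular mediators and a target of the TGF beta and activin pathways: Tgfb1, Tgfb2, Tgfb3, Inhba, Inhbe, Tgfbr1, Tgfbr2, Smad3, Smad7 and Tgfbi. They were chosen by the gene symbol that the array's annotation gives to each probe set; all 10 had 1 probe set each, among 16592 named genes on the array. RNA from whole livers of 6 PCK rats and 6 Sprague Dawley control rats was measured on Affymetrix arrays, 1 array for each liver. All rats were male, 10 weeks old and on a standard diet. The labels describe the PCK livers as cystic and their strain as Crj:CD/SD, a cesarean-derived Sprague Dawley stock of Charles River Japan; the control strain is given only as Sprague Dawley. The PCK rat carries a spontaneous mutation of Pkhd1 and develops bile duct and kidney cysts. Differences due to the disease and those due to the breeding stock cannot be told apart in this design. Values are log2 signals, and differences are PCK minus control on that scale.

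TGF beta is secreted in a latent complex, is released by integrins and proteases, and binds a type II receptor (Tgfbr2) that recruits and phosphorylates a type I receptor (Tgfbr1). The type I receptor then phosphorylates Smad2 and Smad3, which enter the nucleus with Smad4, and Smad7 is induced as an inhibitor of the receptor. Activins are dimers of inhibin beta subunits and signal through their own receptors to the same Smads. In liver the pathway is known for driving collagen production by stellate cells and portal fibroblasts and for restraining hepatocyte growth.

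Promoter sequences are shown for Inhba, Inhbe and Tgfbr1, the genes that passed the test and whose windows held more than 1 of the motifs searched; they were chosen after their values were seen. Tgfbr2 also held more than 1 motif but did not pass the test. RefSeq's GRCr8 table has a window of 250 bases before to 50 bases after the start of all 10 genes. The 3 stretches below end before the start, and capitals mark matches to CCAAT or its complement, the TATA box TATAAA, the GC box GGGCGG or its complement, and the Smad box CAGAC or its complement. Inhba (chr17:53804519-53804628, minus strand) and Inhbe (chr7:65064520-65064624, minus strand) are activin subunit genes, and Tgfbr1 (chr5:66449228-66449342, plus strand) is the type I receptor.
Inhba: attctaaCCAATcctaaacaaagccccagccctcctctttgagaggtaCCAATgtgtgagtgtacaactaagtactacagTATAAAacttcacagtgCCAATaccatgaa
Inhbe: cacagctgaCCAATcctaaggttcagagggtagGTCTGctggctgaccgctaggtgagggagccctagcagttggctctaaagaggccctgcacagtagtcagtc
Tgfbr1: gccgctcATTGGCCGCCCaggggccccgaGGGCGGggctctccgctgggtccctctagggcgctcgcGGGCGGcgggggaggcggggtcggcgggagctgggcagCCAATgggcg

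Over the whole windows, searched on both strands, CCAAT stood in 4 of the 10 genes (Inhba, Inhbe, Tgfbr1 and Tgfbr2), against 37.7% of 27457 promoters. GGGCGG stood in 5 (Tgfbr1, Tgfbr2, Smad3, Smad7 and Tgfbi), against 34.9%, and TATAAA in Inhba, against 14.3%. CAGAC stood in Inhba and Inhbe, 2 of 10, against 13720 of the 27457 promoters. The palindromic Smad element GTCTAGAC (0.215% of all promoters), the AP-1 site TGANTCA (7.33%) and the cyclic AMP element TGACGTCA (1.91%) matched none of the 10 windows. These matches describe letters only.

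All 3 TGF beta ligand genes were higher in PCK livers and both activin subunit genes among the 10 were lower. The type I receptor Tgfbr1 was higher, Smad3 was lower by a small amount, and the type II receptor Tgfbr2, the inhibitor Smad7 and the target Tgfbi did not pass the test. With limma, fitted over all 16592 named genes and with Benjamini-Hochberg adjusted p under 0.05 as the threshold, 4 of the 10 genes were called higher and 3 lower. Of all named genes 17.4% were called higher and 21.0% lower, together 38.3%. The median absolute difference of the 10 genes was 0.195, against 0.0509 over all named genes. The median signed difference was 0.0244, against -0.00667 over all genes. Of the 10 genes 0 had a mean below 5.66, the median of the whole table. The values over all named genes, including the shares called, are not matched to the 10 genes for brightness. The 6 PCK and 6 control values did not overlap for 2 of the 10 genes, Tgfb2 and Smad3; 21.6% of all named genes had groups that did not overlap, so this count was close to the background. In whole liver, a change in the number of cells of a type and a change in RNA per cell cannot be told apart.

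**Figure D1:**
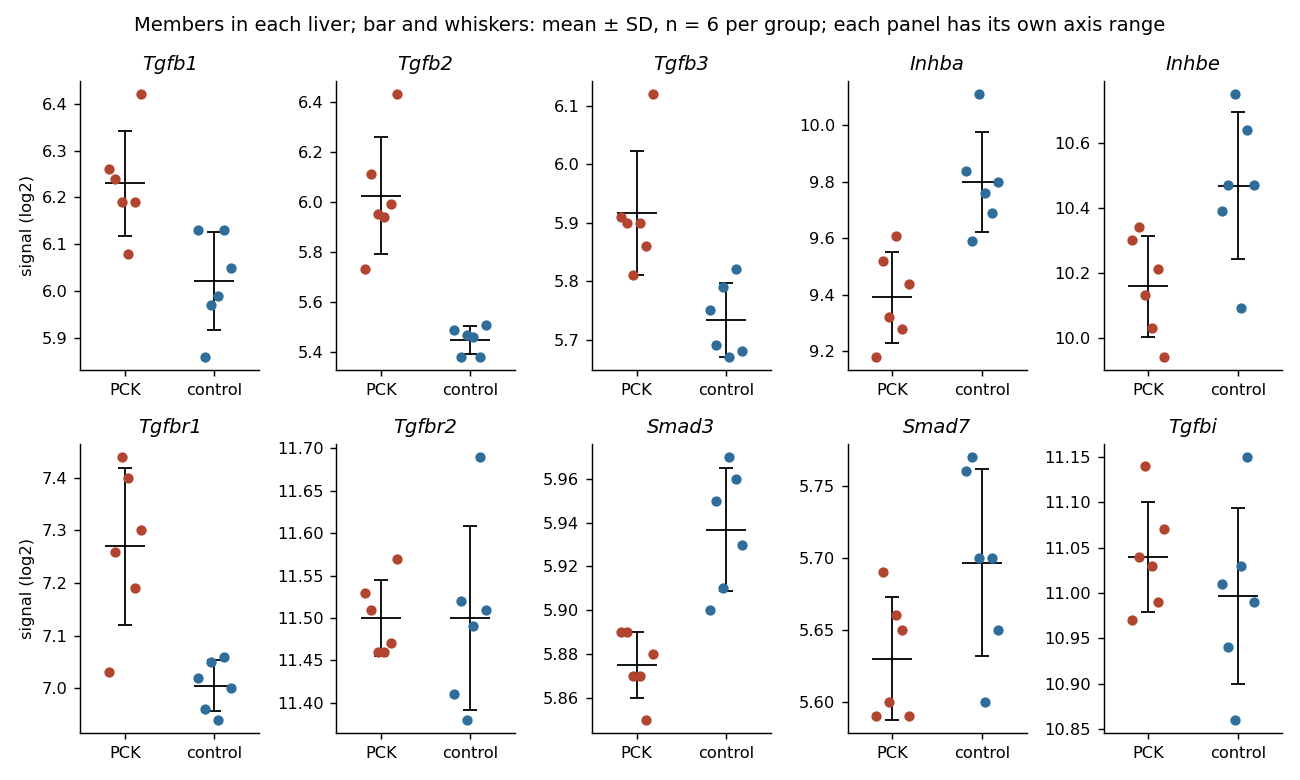
Log2 signal of each of the 10 genes (vertical axes, each with its own range) in 6 PCK livers (left, red) and 6 control livers (right, blue); each point is a liver, the bar is the mean and the whiskers are the SD. Tgfb2 and Smad3 are the genes whose groups do not overlap, and the Smad3 axis spans only from 5.85 to 5.97.

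Tgfb2 encodes the TGF beta isoform that depends on the co-receptor betaglycan for efficient binding to the type II receptor. Its signal was 5.73, 6.11, 5.95, 5.94, 5.99 and 6.43 in PCK livers 1 to 6, against 5.49, 5.38, 5.47, 5.46, 5.38 and 5.51 in control livers 1 to 6. Every PCK value lay above every control value, PCK 6 was the highest and PCK 1 the lowest of the PCK group. The mean was 6.03 ± 0.234 in PCK livers and 5.45 ± 0.0575 in control livers (SD, n = 6 each), and the PCK values were spread more widely. Tgfb2 rose by 0.58 ± 0.0932 (log2, SE; limma adjusted p = 0.000542), a 1.49-fold difference. Its control values lay below 5.66, the median of the whole table. Signal and background were not separated at that level, because no detection calls were used.

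Tgfb1, the isoform made by macrophages, platelets and activated stellate cells, ran from 6.08 to 6.42 with a median of 6.22 in PCK livers, against 5.86 to 6.13 with a median of 6.02 in control livers. PCK 4 lay within the control range and the other 5 PCK livers lay above it. Tgfb1 rose by 0.21 ± 0.0591 (log2, SE; limma adjusted p = 0.0158), or 1.16-fold. Tgfb3, the remaining isoform, ran from 5.81 to 6.12 with a median of 5.90 in PCK livers, against 5.67 to 5.82 with a median of 5.72 in control livers. Again 5 of 6 PCK livers lay above the highest control liver, and here PCK 3 was the exception. Tgfb3 rose by 0.18 ± 0.0478 (limma adjusted p = 0.0106), or 1.13-fold.

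PCK 6 had the highest signal of all 12 livers for each of the 3 ligands. Without it the differences were 0.17 for Tgfb1, 0.50 for Tgfb2 and 0.14 for Tgfb3, and each still passed the test. Whether the ligands rose by unequal amounts was tested on the difference between a pair of genes within each liver, with an exact 2-sided permutation test over all 924 assignments of the livers and adjustment over 6 pairs of related genes. Tgfb2 rose by 0.37 ± 0.0852 more than Tgfb1 (log2, SE; exact p = 0.00649, adjusted 0.0195) and by 0.40 ± 0.0794 more than Tgfb3 (exact p = 0.00433, adjusted 0.0195). Tgfb1 and Tgfb3 differed by 0.03 ± 0.0472 in their rise (exact p = 0.615, adjusted 0.738). With PCK 6, control 5 and control 6 left out together, a choice made after the data were seen, both contrasts of Tgfb2 had an adjusted p of 0.0952.

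Inhba and Inhbe encode the activin beta A and beta E subunits; activin A is a growth-inhibiting and fibrosis-related signal and the beta E subunit is made mainly by hepatocytes. Inhba ran from 9.18 to 9.61 with a median of 9.38 in PCK livers, against 9.59 to 10.11 with a median of 9.78 in control livers. The ranges overlapped only at PCK 4, 9.61, and control 2, 9.59, and 5 of 6 PCK livers lay below every control liver. Inhba fell, at -0.41 ± 0.0925 (log2, SE; limma adjusted p = 0.00470), to 0.753 of the control level.

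Inhbe ran from 9.94 to 10.34 with a median of 10.17 in PCK livers, against 10.09 to 10.75 with a median of 10.47 in control livers. Its groups overlapped only through control 4, which at 10.09 lay below 4 PCK livers. Inhbe fell, at -0.31 ± 0.106 (limma adjusted p = 0.0375), but this call rested on the full set of livers. It was lost when any 1 of PCK 3, PCK 4, PCK 5, PCK 6, control 2, control 3, control 5 or control 6 was left out (adjusted p from 0.0557 to 0.0804), while without control 4 the difference was -0.39 (adjusted p = 0.00606). Inhba and Inhbe differed by -0.10 ± 0.142 in their change (exact permutation p = 0.506, adjusted 0.738).

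Tgfbr1, the type I receptor kinase, ran from 7.03 to 7.44 with a median of 7.28 in PCK livers, against 6.94 to 7.06 with a median of 7.01 in control livers. PCK 1, at 7.03, lay among the control livers and the other 5 PCK livers lay above all of them. Tgfbr1 rose by 0.26 ± 0.0599 (log2, SE; limma adjusted p = 0.00496), or 1.20-fold. Without PCK 1 the rise was 0.31.

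Tgfbr2, the type II receptor that binds the ligand, was at 11.50 ± 0.0427 in PCK livers and 11.50 ± 0.107 in control livers (SD, n = 6 each). PCK minus control came to 0.00195 ± 0.0447 (SE) on the log2 scale (limma adjusted p = 0.980), with a 95% confidence interval from -0.0963 to 0.10. Within livers, Tgfbr1 rose relative to Tgfbr2 by 0.26 ± 0.083 (exact permutation p = 0.0130, adjusted 0.0260). That adjusted p was 0.0563 without control 2, control 4, control 5 or control 6.

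**Figure D2:**
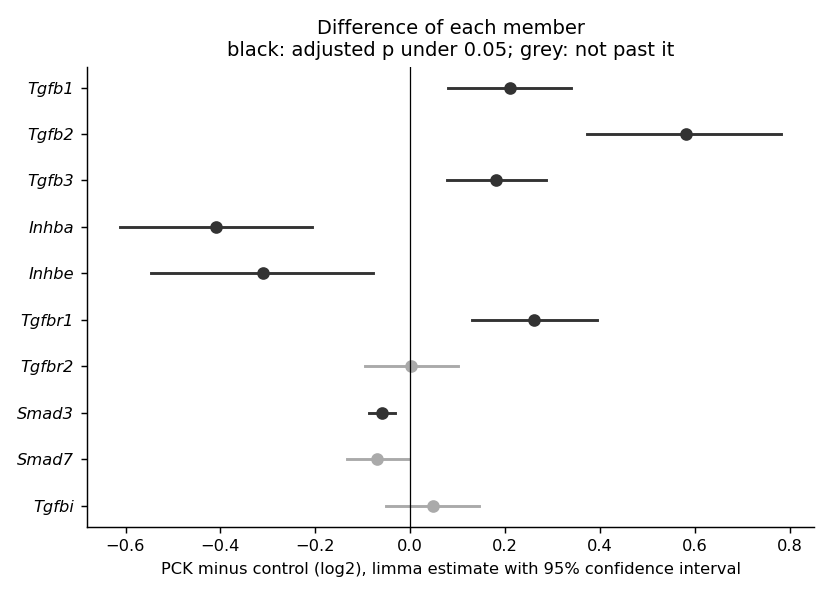
Difference of each of the 10 genes, PCK minus control on the log2 scale (horizontal axis), as the limma estimate with its 95% confidence interval; black genes passed an adjusted p of 0.05 and grey genes did not. The 3 TGF beta ligands and Tgfbr1 lie right of 0, from 0.18 to 0.58, and Inhba and Inhbe lie left of it.

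Smad3, a receptor-activated Smad that carries the TGF beta and activin signal, had a narrow spread. Its values ran from 5.85 to 5.89 in PCK livers and from 5.90 to 5.97 in control livers, without overlap. Smad3 differed by -0.0596 ± 0.0126 (log2, SE; limma adjusted p = 0.00313), so its linear signal fell by 4.05%. Of all named genes 46.7% differed by at least that much in either direction. The adjusted p was 0.0510 with a variance trend and robust estimation and 0.0620 among genes above the median of gene means, so the call ended under both settings.

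Smad7, the inhibitory Smad that TGF beta itself induces, ran from 5.59 to 5.69 with a median of 5.63 in PCK livers, against 5.60 to 5.77 with a median of 5.70 in control livers. Control 4, at 5.60, lay among the lowest PCK livers. PCK minus control came to -0.0693 ± 0.0296 (SE) on the log2 scale and missed the threshold (limma adjusted p = 0.0873); without control 4 it was -0.0882 (adjusted p = 0.0232). Smad7 and Smad3 differed by -0.01 ± 0.0374 in their change (exact permutation p = 0.812, adjusted 0.812).

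Tgfbi, an extracellular matrix protein named for its induction by TGF beta, was bright in every liver and showed no call. It ran from 10.97 to 11.14 in PCK livers and from 10.86 to 11.15 in control livers. PCK minus control came to 0.0469 ± 0.0442 (SE) on the log2 scale (limma adjusted p = 0.448), with a 95% confidence interval from -0.0502 to 0.144.

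**Figure D3:**
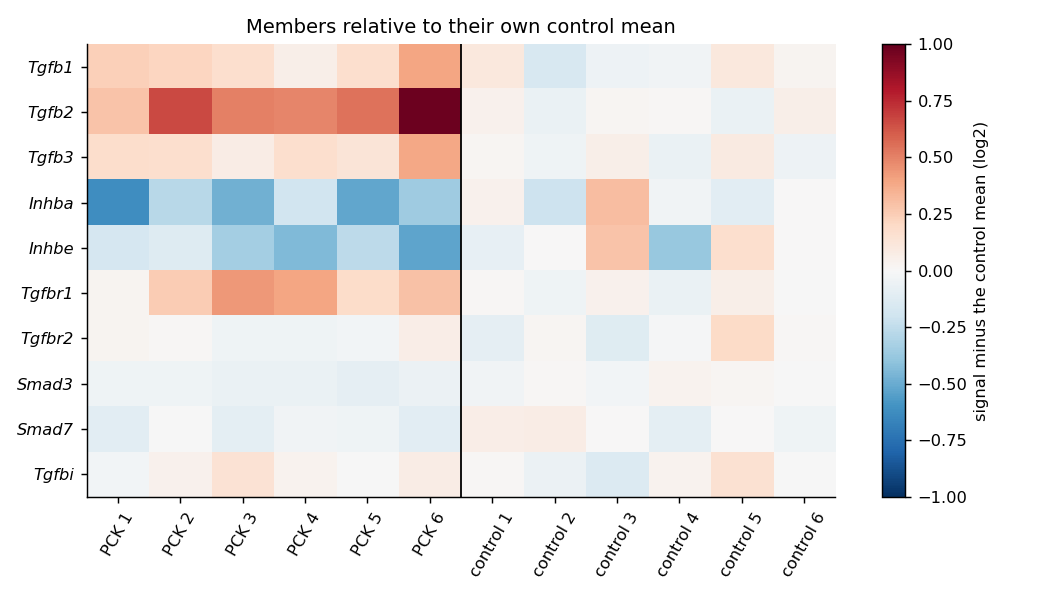
Signal of the 10 genes (rows) in each liver (columns, PCK 1 to 6 left of the line and control 1 to 6 right of it) minus the control mean of the same gene, on the log2 scale from -1 (blue) to 1 (red). The Tgfb2 row is red in all PCK livers and darkest in PCK 6, and the Inhba and Inhbe rows are blue in all PCK livers.

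The other genes of the pathway were counted in lists by role. Of 101 listed genes 89 were measured, and 31 of these were higher and 16 lower (52.8% called, against 38.3% of all named genes). The lists were chosen with earlier results of these arrays known, so the counts are descriptions. The share over all named genes is not matched to the lists for brightness.

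Among the genes that hold TGF beta latent or release it, 7 of 12 were higher and 2 lower, with a median difference of 0.153. The share called was above the 38.3% of all named genes. Among genes above the median of gene means, where fewer genes were tested, 3 of this list were higher and 2 lower. Itgb6, the epithelial integrin subunit that pairs with Itgav to release active TGF beta from its latent complex, was at 6.01 ± 0.224 in PCK livers and 5.42 ± 0.0353 in control livers (SD, n = 6 each). It rose by 0.60 ± 0.0876 on the log2 scale (SE; limma adjusted p = 0.000278). The control values of Itgb6, 5.36 to 5.45, lay at the lower quartile of the table (5.36) or just above it, so the size of its rise is not exact. Itgav itself ran from 9.74 to 9.98 in PCK livers and from 9.23 to 9.35 in control livers, a rise of 0.59 ± 0.0376 (limma adjusted p = 9.81e-07). Fbn1, the microfibril protein that anchors latent complexes, rose by 0.39, and the latent TGF beta binding proteins Ltbp1, Ltbp2 and Ltbp3 by 0.28, 0.23 and 0.16. Itgb8, another integrin subunit that pairs with Itgav, rose by 0.15. The control values of Itgb8, 5.32 to 5.35, lay below the table's lower quartile, so this size is not exact either. The lower genes were Ltbp4 (-0.16) and the processing protease Furin (-0.15). Neither call remained without PCK 5, and the lower count was 1 without PCK 2, PCK 3, PCK 4, PCK 6, control 1, control 2 or control 5.

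Other ligands of the activin and growth differentiation group were mostly near the bottom of the signal range, with 8 of 12 below the table's median. Of the 12, 1 was higher and 3 lower (median -0.0201), 33.3% in all, below the 38.3% of all named genes. Inhbc, the beta C subunit and the coding gene next to Inhbe in GRCr8, was bright, at 11.01 ± 0.11 in PCK livers and 11.37 ± 0.133 in control livers (SD, n = 6 each). It fell, at -0.37 ± 0.0669 (log2, SE; limma adjusted p = 0.00126). Nodal (-0.11) and Gdf11 (-0.0435) fell as well, and the stress-responsive ligand Gdf15 rose by 0.15. Inhbb, the beta B subunit, was at -0.11 and missed the threshold (limma adjusted p = 0.0628).

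Bone morphogenetic proteins signal through related receptors and a separate set of Smads. Of 12 measured ligands 2 were higher and 3 lower, with a median of -0.0377. The share called, 41.7%, was near the 38.3% of all named genes. Bmp2 was at 5.84 ± 0.0531 in PCK livers and 6.25 ± 0.102 in control livers (SD, n = 6 each) and fell, at -0.42 ± 0.0446 (log2, SE; limma adjusted p = 3.19e-05). Bmp5 (-0.20) and Bmp6, the endothelial ligand that induces hepcidin (-0.21), fell too. Bmp4 moved the other way, at 5.86 ± 0.0671 in PCK livers and 5.49 ± 0.0576 in control livers, a rise of 0.37 ± 0.0345 (adjusted p = 1.22e-05), and Bmp7 rose by 0.28. The lower count was 5 without PCK 1, PCK 4 or control 4, and 7 with the arrays centred on the mean of the brightest 25% of genes.

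Receptors other than the 2 described above were called in both directions, 2 of 11 higher and 3 lower (median 0.0249). That is 45.5% called, near the 38.3% of all named genes. Tgfbr3, which encodes betaglycan, the co-receptor for Tgfb2 and for inhibins, was at 6.35 ± 0.0537 in PCK livers and 6.92 ± 0.188 in control livers (SD, n = 6 each). It fell, at -0.56 ± 0.0755 (log2, SE; limma adjusted p = 0.000152), and its groups did not overlap. The activin receptors Acvr2a (-0.38, adjusted p = 2.01e-05) and Acvr1c (-0.34, adjusted p = 0.000644) fell. The activin type I receptor Acvr1b, at 0.0617, missed the threshold (adjusted p = 0.253). The higher receptors were Bmpr2, at 0.17, and Bmpr1b, at 0.0317 near the bottom of the range.

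Among the other Smads, 1 of 5 was called (20.0%, against 38.3% of all named genes) and the median was 0.0299. Smad2, the partner of Smad3 downstream of the receptors, was at 7.35 ± 0.0558 in PCK livers and 6.84 ± 0.142 in control livers (SD, n = 6 each) and rose by 0.50 ± 0.0591 (log2, SE; limma adjusted p = 5.94e-05). Its PCK range of 7.26 to 7.41 lay above its control range of 6.60 to 6.98. The shared partner Smad4, at 0.0299, missed the threshold (adjusted p = 0.624). A lower Smad, Smad5 at -0.12 with all livers (adjusted p = 0.0527), was counted without PCK 2, PCK 4 or control 3.

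Of 18 inhibitors and binding proteins 8 were higher and 3 lower (median 0.046), 61.1% in all, against 38.3% of all named genes. The matrix proteoglycans Dcn and Bgn, which bind TGF beta, rose by 2.01 and 0.64; Dcn was at 10.34 ± 0.194 in PCK livers and 8.33 ± 0.833 in control livers (SD, n = 6 each). The immunophilin Fkbp1a, which holds the type I receptor inactive, rose by 0.31. The ubiquitin ligases that remove Smads and receptors moved in opposite directions: Smurf1 rose by 0.48 ± 0.0554 (limma adjusted p = 5.05e-05), while Smurf2 fell, at -0.34 ± 0.0351 (adjusted p = 2.42e-05). Smad6, the inhibitory Smad of the bone morphogenetic protein branch, and its extracellular antagonist Chrd fell (-0.18 and -0.30), and the nuclear repressor Tgif1 rose by 0.44. The activin antagonist Fst rose by 0.0638 near the bottom of the signal range.

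Of 19 measured target genes 10 were higher and 2 lower (63.2% called, against 38.3% of all named genes), with a median of 0.141. The cell cycle inhibitor Cdkn1a was at 8.87 ± 0.21 in PCK livers and 7.75 ± 0.393 in control livers (SD, n = 6 each), a rise of 1.12 ± 0.172 (log2, SE; limma adjusted p = 0.000382). The protease inhibitor Timp1 rose by 1.11 and the matricellular protein Ccn2 by 1.03. Cdkn2b, which is induced through Smads, rose by 0.28, and the collagen gene Col1a1 by 0.38. The bone morphogenetic protein targets Id2 (-0.61, adjusted p = 6.55e-05) and Id3 (-0.25, adjusted p = 0.0191) were the lower genes. Id1, of the same family, was at 0.0568 and missed the threshold (limma adjusted p = 0.223). Its control mean, 5.63, lay below the table's median, where signal and background were not separated. All of these genes also answer to other signals. Fn1 and Col1a2, at 0.0791 and 0.14, missed the threshold (adjusted p = 0.0821 and 0.441).

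**Figure D4:**
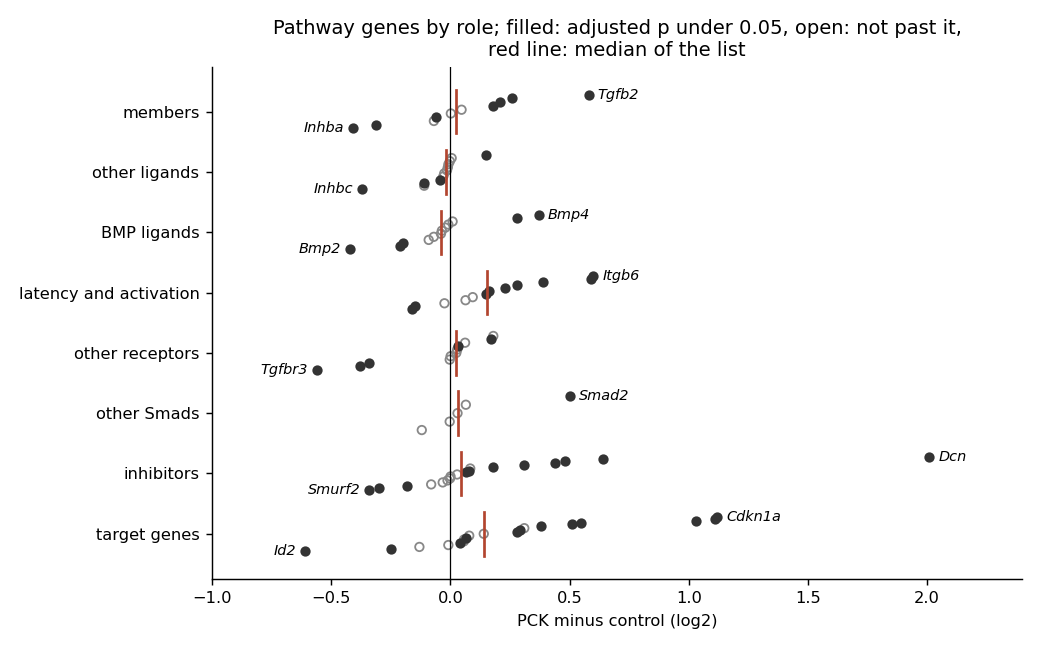
Difference of each measured gene, PCK minus control on the log2 scale (horizontal axis), by role; filled points passed an adjusted p of 0.05, open points did not, and the red line is the median of each list. Tgfb2, Itgb6, Smad2, Dcn and Cdkn1a lie farthest right in their lists, and Inhba, Inhbc, Bmp2, Tgfbr3, Smurf2 and Id2 farthest left.

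Markers of other cell types were counted in the same way, to be read against the 38.3% called among all named genes. That share is not matched to the markers for brightness. All 9 measured bile duct cell markers were higher in PCK livers, led by Krt19 (1.88) and Tspan8 (1.54), and their summed linear signal was 814 to 1344 in PCK livers, against 482 to 537 in control livers. The 9 include Pkhd1, the gene mutated in PCK rats, which rose by 1.05. Pkhd1 had the largest signal of the 9 in every liver, so the sum is not free of the mutated gene. No sum without Pkhd1 is given here. Tspan8 was at 5.24 to 5.30 in control livers, below the table's lower quartile, so its difference is not exact. Of 8 macrophage markers 7 were higher and 0 lower (87.5% called), led by Lyz2 (2.35) and Clec4f (0.83), with sums of 6045 to 8022 in PCK livers, against 2455 to 4102 in control livers. The 14 measured markers of stellate cells and myofibroblasts included 8 higher ones, led by Rgs5 (1.42) and Pdgfrb (0.94), and 4 lower ones, Hgf (-0.44), Reln (-0.29), Lrat (-0.24) and Ngfr (-0.0531), together 85.7% called. Their sums were 5152 to 5754 in PCK livers, against 3760 to 4564 in control livers, but Dpt alone made up 66.4% to 73.0% of the sum in PCK livers and 67.5% to 71.3% in control livers. Without Dpt the other 13 summed to 1506 to 1796 in PCK livers, against 1175 to 1310 in control livers.

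Endothelial markers had 1 of 8 higher and 3 lower (4 of 8 called), with Clec4g (-0.99) and Tek (-0.38) falling most, and sums of 1576 to 1982 in PCK livers, against 1981 to 2407 in control livers. Hepatocyte markers had 1 of 9 higher and 3 lower (44.4%), with Hnf4a (-0.29) and Cyp2e1 (-0.20) falling most, and sums of 94026 to 96758 in PCK livers, against 95863 to 99869 in control livers. T and NK cell markers had 1 of 8 higher (Cd3g, 0.0301) and 1 lower (Prf1, -0.10), 2 of 8 in all, with sums of 340 to 354 in PCK livers, against 342 to 356 in control livers. Platelet markers had 1 of 5 higher (Pf4, 0.057) and 1 lower (Itga2b, -0.22), 40.0% in all. Their sums were 238 to 248 in PCK livers, against 245 to 259 in control livers. Of the 8 T and NK cell markers 7 had means below the table's median, 4 of them below its lower quartile. Of the 5 platelet markers 4 had means below the median. Signal and background were not separated at that level, so similar sums do not show that these cells were unchanged. The defining hepatocyte markers Alb, at 13.98 in every liver, and Ttr, at 13.67 to 13.79 in both groups, stood at the top of the signal range. The sorted values of all 12 arrays were identical, so genes at the top had little room to differ, and they weigh most in the hepatocyte sum. The shares called among hepatocyte, T and NK cell and platelet markers were below or near that of all named genes. Given these limits at the top and bottom of the range, such shares do not show that the cell types were unchanged.

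PCK 6, the liver with the highest Tgfb1, Tgfb2 and Tgfb3, also had the highest bile duct cell sum, 1344, and the highest macrophage sum, 8022. PCK 1 had the lowest Tgfb2 of the PCK group and its lowest bile duct cell sum, 814, but PCK 4 had the next lowest Tgfb2, 5.94, with the next highest sum, 1039. Among control livers the highest Tgfb2, 5.51 in control 6, stood beside one of the lower sums, 515. PCK 4 had the lowest Tgfb1 of the PCK group and its lowest macrophage sum, 6045, but PCK 1, with a Tgfb1 of 6.26, had a lower sum (6323) than PCK 3 and PCK 5 (6342 and 6387), both with a Tgfb1 of 6.19. Control 1 and control 5 shared the highest control Tgfb1, 6.13, with macrophage sums of 2784 and 4102. The sum of control 5 was the highest of the control group. Control 2 had the lowest control Tgfb1, 5.86, and the lowest control macrophage sum, 2455. PCK 3, the lowest of the PCK group for Tgfb3, had a bile duct cell sum of 984. The part of these cell types in the ligand differences was not tested.

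**Figure D5:**
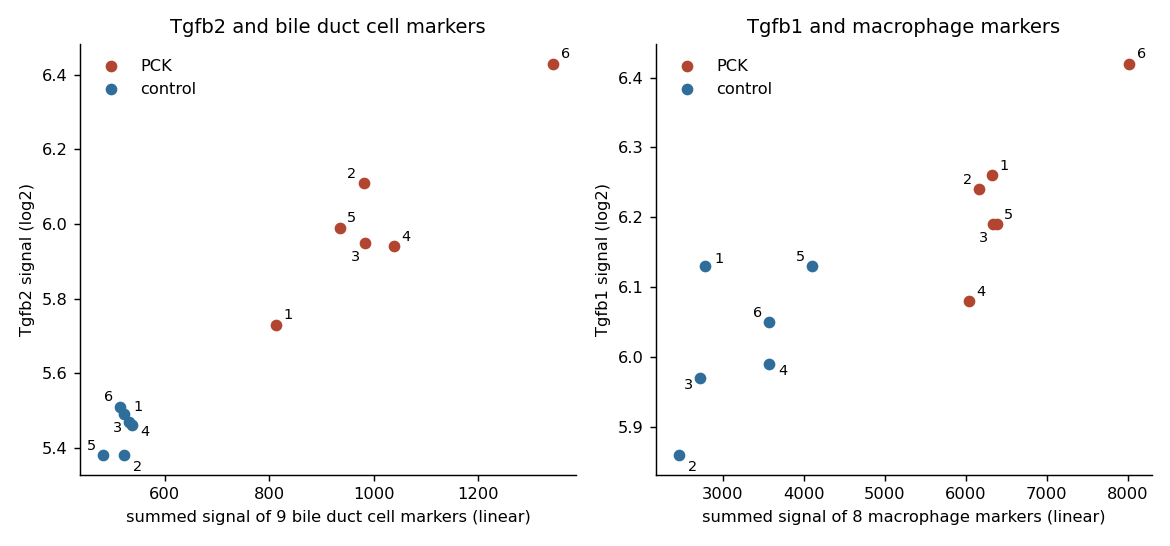
Tgfb2 against the summed signal of 9 bile duct cell markers (left) and Tgfb1 against the summed signal of 8 macrophage markers (right); each point is a liver, red for PCK and blue for control, numbered by replicate, with log2 signal on the vertical axes and linear signal on the horizontal axes. PCK 6 is at the upper right of both plots, with sums of 1344 and 8022.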

How the data were processed

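The authors hybridised biotinylated cRNA to 12 arrays, per the labels' protocols, and deposited normalized values on what the range (5.14 to 13.98) shows to be a log2 scale, for 19239 probe sets. After sorting, all 12 columns were identical, as quantile normalization gives. That step removes any difference in total RNA between livers. The summarisation method is not given in the sources used here, and no detection calls were used.

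Probe sets were named from the platform annotation, and older symbols were replaced through RefSeq (GRCr8) by the gene identifier for 3326 probe sets. The 16592 named genes were tested with limma 3.58.1 (R 4.3.3; lmFit, eBayes, 2-sided, no filter), with Benjamini-Hochberg adjustment over all of them. Tested on simulated data of 16592 genes for this comparison, the fit recovered 97% of genes changed 1.5-fold and all changed 2-fold, with 6 false among 203 calls. The simulation changed only 200 genes, with independent normal noise, whereas 38.3% of the named genes were called here. All called members differed by less than 1.5-fold, so these rates do not carry over to their calls.

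The members and lists were chosen with earlier results of these data known. Named genes were the 10 members, up to 3 called genes with the largest absolute difference of each pathway list, and up to 2 of each marker list; others were chosen after their values were seen. Listed genes without a named probe set, such as Acta2, Thbs1 and Eng, were not analysed here. Summed marker levels are sums of linear signals. Livers are biological replicates per the labels, and precision is limited by how many there are. Replicate numbers did not pair livers of the groups: same-numbered deviations correlated at -0.137 to 0.165 over genes. Alternatives varied centring, filter, rows, variance model, array weights, replicate block, threshold and test, and left out each liver in turn.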

Additional observations from a re-analysis of the deposited data

Results flagged for a closer look

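Among 43 genes (the 10 members and the other genes named by the rule), each group of 6 livers was checked for a highest or lowest liver whose gap to the next, as a share of the group's range, exceeded Dixon's 95% critical value. Of 86 groups 9 were marked, where chance marks about 5%. PCK 6 accounted for 6 of them, each time as the highest PCK liver: Tgfb3 at 6.12 (next 5.91), Fbn1 at 6.62 (next 6.30), Smurf1 at 6.54 (next 6.33), Krt19 at 8.28 (next 7.70), Lyz2 at 11.68 (next 11.31) and Prf1 at 5.62 (next 5.58). Without PCK 6 the differences were 0.14 for Tgfb3, 0.33 for Fbn1, 0.45 for Smurf1, 1.76 for Krt19, 2.28 for Lyz2 and -0.11 for Prf1, all still past the test. Control 4 was the lowest control liver for Inhbc, at 11.12 (next 11.37), and the highest for Tspan8, at 5.30 (next 5.25). Control 2 was the highest control liver for Tgfbr3, at 7.28 (next 6.94), and without it the difference was -0.49.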

How the results depend on the processing

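The counts of 4 higher and 3 lower members were within 1.5 times the reported ones in every alternative run except the threshold of 0.01, which left 2 higher (Tgfb2 and Tgfbr1) and 2 lower. Leaving out each liver in turn gave 4 higher each time and 2 to 4 lower. Tgfb1, Tgfb2, Inhba and Tgfbr1 passed 0.05 in all 21 alternatives run for each, with differences of 0.17 to 0.24, 0.49 to 0.64, -0.45 to -0.35 and 0.23 to 0.31. Inhbe lost its call in 10 of 21, with array weights (adjusted p = 0.0645) and with PCK 6, control 5 and control 6 left out together (-0.22, adjusted p = 0.215) besides the 8 livers named above. With the replicate number as a block (replicate block), Tgfb3 had an adjusted p of 0.0526, 3 members were higher and 3 lower, other ligands had 1 lower, latency and activation 0 and target genes 1; the shared number is no design pairing, only the livers numbered 6 correlated best with each other, and no other member's call changed. Smad7 had an exact permutation p of 0.0455 before adjustment. Over all genes, the threshold of 0.01 left 2168 lower.

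Small lists moved most. Centring on the mean of the brightest 25% gave 7 lower bone morphogenetic proteins and 1 lower Smad, and trend with robust estimation or array weights gave 5 lower bone morphogenetic proteins. Among genes above the median of gene means, where fewer genes were tested, 1 bone morphogenetic protein, 3 latency genes and 1 receptor were higher and 1 Smad was lower. With PCK 6, control 5 and control 6 left out, 0 other ligands were higher and 1 lower, 1 bone morphogenetic protein was higher, and 0 latency genes were lower; within livers the contrasts were -0.29 for Tgfb1 against Tgfb2 (adjusted p = 0.0952), 0.34 for Tgfb2 against Tgfb3 (0.0952) and 0.23 for Tgfbr1 against Tgfbr2 (0.159). Leaving out each liver gave 3 to 5 lower bone morphogenetic proteins, 0 to 2 lower latency genes, 0 to 1 lower Smads and 0.22 to 0.31 for Tgfbr1 against Tgfbr2. The causes were not tested, and no result reversed in the alternatives run. Among other named genes, Cd3g lost its call in 10 of 19 alternatives, Nodal in 2 of 20, and Gdf15, Bmp7 and Cyp2e1 in 1 of 20 each. Signal near the bottom of the range limits the sizes given for Tgfb2, Tgfb3, Smad3, Smad7, Itgb6, Tspan8 and other dim genes.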
